A study of Mus musculus with 95 samples.

Results

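In wild-type mouse embryonic stem cells, 2870 of the 8063 peaks called for the histone mark H3K27me3 (35.6%) shared no base with a peak of SUZ12 or of RING1B from the same cells. These 2870 regions are called solitary peaks here, and the other 5193 H3K27me3 peaks are called co-called peaks. Of the co-called peaks, 4471 overlapped both proteins, 555 overlapped SUZ12 alone and 167 overlapped RING1B alone. The solitary peaks were chosen by the calls in these 3 wild-type peak lists, so their lack of SUZ12 and RING1B is a definition and not a result. The rule asks only for no shared base. It placed peaks at Edn2 (chr4:119834116-119834745, 8 bp from the nearest called site) and Sorbs3 (9 bp away) among the solitary peaks, and peaks at Grm4 and Hspb1, which shared 1 bp with such a site, among the co-called ones. In all, 147 solitary peaks lay within 100 bp of a SUZ12 or RING1B peak, and 118 co-called peaks shared 100 bp or less with one.

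H3K27me3, trimethylation of lysine 27 of histone H3, is written by Polycomb repressive complex 2 (PRC2), in which EZH1 or EZH2 is the enzyme and SUZ12 and EED are core subunits. RING1B is the ubiquitin ligase of Polycomb repressive complex 1 (PRC1), which places ubiquitin on histone H2A (H2AK119ub1), and each PRC1 holds 1 of the PCGF proteins. In embryonic stem cells PRC2 concentrates at CpG islands of silent developmental genes, and EED can bind the mark that PRC2 has made, by which the mark can extend into flanking chromatin.

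The series compared E14 mouse embryonic stem cells of 7 genotypes: wild-type, Pcgf1-/-, Pcgf2/4-/- (Pcgf4 is the older name of Bmi1), Pcgf3/5-/-, Pcgf6-/-, Pcgf1/2/4-/- and Pcgf3/5/6-/-. All were cultured without feeders, on gelatin, with serum, leukemia inhibitory factor and inhibitors of GSK3 and MEK1/2. The knockouts were Cas9-edited clones, and those lacking several genes were made by editing single-knockout clones again, per the labels' protocols; the number of clones behind a line is not given in the sources used here. Chromatin immunoprecipitation gave 1 peak list per antibody and line, except 2 lists for RING1B and for H2AK119ub1 in Pcgf1/2/4-/-, while RNA sequencing gave 2 libraries per genotype.

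Every deposited peak list stopped at a -log10 p of 10, so a peak that is absent from a list may have lost its mark or may have fallen below that limit. With 1 H3K27me3 list per line no test over samples was possible, and the intervals given for shares are Wilson 95% intervals that cover counting error only. The H3K27me3 lists differed widely in length, from 3918 peaks (2.22 Mb) in Pcgf1/2/4-/- to 112110 peaks (81.6 Mb, 3.07% of the genome) in Pcgf2/4-/-, against 8063 peaks (6.33 Mb) in wild-type. RNA libraries held 2147968 to 7848161 counts. In the libraries labelled Pcgf6-/-, no read of Pcgf6 was counted (wild-type 36.2 and 34.3 CPM, the counts scaled to an equal library total), whereas those labelled Pcgf3/5/6-/- held 42 and 37.2 CPM. Pcgf1 fell from 66.1 and 61 CPM to 4.81 and 3.2 CPM in Pcgf1-/- and to 0.534 and 0.903 CPM in Pcgf1/2/4-/-. Pcgf2, Bmi1 and Pcgf3 did not pass the test in the lines named for their loss. Pcgf5 fell in Pcgf3/5-/- (5.48 and 4.6 CPM against 13 and 10.8 in wild-type) and stood at 16.4 and 13.5 CPM in the line labelled Pcgf3/5/6-/-. Where the edits lie is not given in the sources used here, and a small deletion need not lower a gene's count, so these values do not show whether the proteins are absent. All 10 embryonic stem cell markers examined, Pou5f1 and Nanog among them, had counts in every library.

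The sequences of strong solitary peaks can be set beside that of a strong co-called peak. Below are 300 bases around the summit of 2 of them and of the strongest co-called H3K27me3 peak that could be shown, read from the + strand of NCBIM37, which is the mm9 build of the files, with each CpG in capitals.
Solitary peak in an intron of Mid1, chrX:166433823-166434122: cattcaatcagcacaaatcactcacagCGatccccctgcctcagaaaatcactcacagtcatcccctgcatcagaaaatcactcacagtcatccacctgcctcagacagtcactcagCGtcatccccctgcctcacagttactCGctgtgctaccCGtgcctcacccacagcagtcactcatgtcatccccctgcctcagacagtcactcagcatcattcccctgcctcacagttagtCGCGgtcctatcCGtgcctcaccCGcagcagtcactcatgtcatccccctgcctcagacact
Solitary peak outside genes near Gm10146, chr10:77851792-77852091: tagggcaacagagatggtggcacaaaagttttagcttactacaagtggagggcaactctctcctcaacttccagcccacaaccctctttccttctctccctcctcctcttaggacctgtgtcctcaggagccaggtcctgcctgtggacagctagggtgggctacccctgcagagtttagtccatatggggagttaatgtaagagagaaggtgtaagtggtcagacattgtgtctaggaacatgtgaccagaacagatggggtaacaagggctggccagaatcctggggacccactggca
Co-called peak in the same intron of Mid1, chrX:166435373-166435672: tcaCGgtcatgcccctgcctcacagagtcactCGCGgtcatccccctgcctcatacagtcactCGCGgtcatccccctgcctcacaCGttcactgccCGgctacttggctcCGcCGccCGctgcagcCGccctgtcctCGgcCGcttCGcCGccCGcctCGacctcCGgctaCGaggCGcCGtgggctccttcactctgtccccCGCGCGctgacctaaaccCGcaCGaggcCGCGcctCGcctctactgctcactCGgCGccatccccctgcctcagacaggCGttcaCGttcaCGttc
The Mid1 window held 8 CpGs and the Gm10146 window 0, against 34 in the co-called window. Their GC content was closer together, at 55.7% and 52.7% against 69%. The co-called window had a ratio of observed to expected CpGs of 1.08, above the median of 0.517 over whole co-called peaks. The ratio was 0.457 in the Mid1 window and 0 in the Gm10146 window. The window of the solitary peak at Spink2, not printed, held 7 CpGs, a ratio of 0.594, which is above that median of co-called peaks. The Mid1 window is a tandem repeat: the word cccctgcctca, its most frequent of 11 letters, picked after seeing the window, stood there 5 times on either strand and 4 times in the co-called window nearby. The 300 bases around the summit held that word in 9 solitary peaks (0.314%) and in 9 co-called ones (0.173%), so it is no feature of the class.

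Single windows varied, but over the whole class solitary peaks were poorer in CpG than co-called peaks. The ratio of observed to expected CpGs had a median of 0.245 in solitary peaks (quartiles 0.162 and 0.354, n = 2869 with a defined ratio) and of 0.517 in co-called peaks (0.378 and 0.646). A ratio of at least 0.6 together with a GC content of at least 55% was met by 38 solitary peaks (1.32%) and 1451 co-called peaks (27.9%). The median GC content was 52.3% against 56.9%. Solitary peaks were also narrow, with a median width of 436 bp (quartiles 306 and 616, range 200 to 4613 bp) against 783 bp. Their enrichment was lower: the authors' fold enrichment had a median of 5.46 (1.76 to 9.82) against 5.96, and their -log10 q a median of 7.88 against 9.37. The -log10 p of solitary peaks had a median of 11.3 (quartiles 10.8 and 12.5), against 13.1 in co-called peaks. Most solitary peaks thus stood close to the limit of 10 at which the lists stop. Because width, enrichment and overlap with another list depend on one another, these are descriptions of the class and were not tested.

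**Figure D1:**
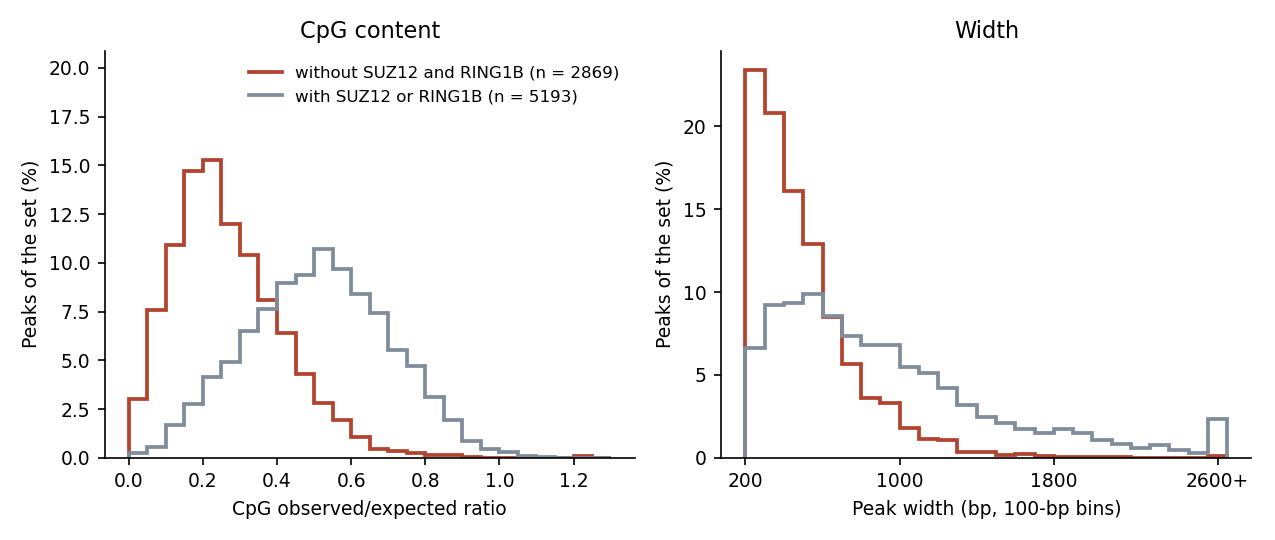
Distributions of the CpG observed/expected ratio (left) and of peak width in bp (right) over wild-type H3K27me3 peaks, as percent of the 2869 or 2870 peaks without SUZ12 and RING1B (red) and of the 5193 with either (grey). The red curves peak at lower CpG ratios and at smaller widths; medians were 0.245 against 0.517 and 436 bp against 783 bp.

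Most solitary peaks lay close to a SUZ12 site without reaching it. The median distance to the nearest wild-type SUZ12 peak was 1291 bp (quartiles 424 and 19593 bp, range 8 to 4020080 bp), and to the nearest RING1B peak 2294 bp. Within 1 kb of SUZ12 lay 1282 solitary peaks (44.7%) and between 1 and 5 kb another 559 (19.5%). A second group was remote, as the histogram of distances shows: 438 (15.3%) lay at 10 to 50 kb, 159 (5.54%) at 50 to 100 kb and 283 (9.86%) beyond 100 kb. The description "outside SUZ12 sites" therefore covers flanks of SUZ12 sites as well as isolated places. Another H3K27me3 peak, one with SUZ12 or RING1B, stood within 5 kb of 1531 solitary peaks (53.3%), and within 1 kb of 937.

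**Figure D2:**
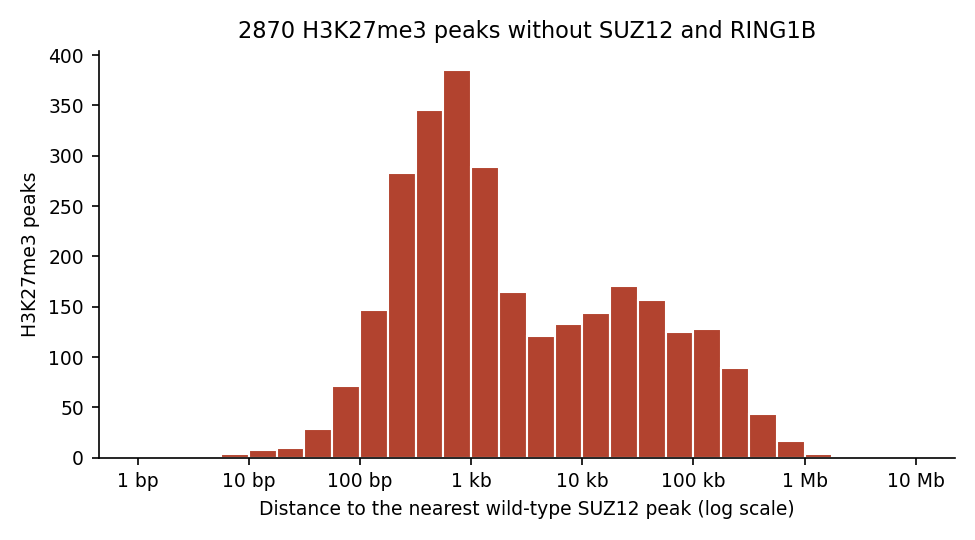
Number of solitary H3K27me3 peaks by distance to the nearest wild-type SUZ12 peak, on a log axis from 1 bp to 10 Mb. The tallest bars stand just below 1 kb, and a lower, broad shoulder runs from 10 kb upward.

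Remote and flanking solitary peaks differed in position and base composition. The median fold enrichment was 5.46 and the median -log10 q 7.88 in each of the 6 distance ranges. These tied values lie near the limit of the lists and cannot show equal strength. Solitary peaks with a -log10 q of at least 10 lay nearer to SUZ12, as given in the closing section. The median width lay between 409 and 449 bp. The CpG ratio was lowest within 1 kb of SUZ12, at 0.222, and 0.297 beyond 100 kb. A protein-coding gene start lay within 2.5 kb of 54.2% of the peaks within 1 kb of SUZ12, of 22.8% of those at 5 to 10 kb and of 39.9% of those beyond 100 kb. Remote solitary peaks at gene starts are thus places where H3K27me3 was called at a promoter with no called SUZ12 nearby. A RING1B peak could lie nearer: 283 solitary peaks lay beyond 100 kb of SUZ12 and 260 beyond 100 kb of both proteins.

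By the annotation (GENCODE M1 on NCBIM37), 1151 solitary peaks (40.1%, interval 38.3 to 41.9%) lay within 2.5 kb of a protein-coding gene start, against 62.8% of co-called peaks and 3.9% of the genome. Exons beyond that window held 448 (15.6%, against 15.3% of co-called peaks), introns 502 (17.5% against 6.72%) and sequence outside genes 769 (26.8% against 15.2%). The start itself lay inside 64 solitary peaks (2.23%) and inside 13.3% of co-called peaks. Solitary peaks therefore stood beside gene starts far more often than on them. Among chromosomes, the solitary share of H3K27me3 peaks was highest on chromosome 15 (245 of 541, 45.3%) and, of those with over 100 peaks, lowest on chromosome 8 (66 of 252, 26.2%). Chromosome X held 12 H3K27me3 peaks in all, 2 of them solitary.

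Solitary peaks came in rows: 1246 (43.4%) had another within 5 kb. Joined over gaps of up to 5 kb they formed 2138 runs, of which 1624 held a single peak and 17 held 5 or more. The 2 longest held 8 peaks each. The first spanned 20.4 kb of Celsr2, an atypical cadherin of planar cell polarity (chr3:108196134-108216536), with SUZ12 peaks 105 to 2125 bp away. The second spanned 11.6 kb outside genes near the homeobox gene Nkx1-1 (chr5:33796541-33808135), with the nearest SUZ12 peak 18096 to 29240 bp off. Nkx1-1 was the nearest gene of 12 solitary peaks, more than any other gene. Lmx1b, a LIM homeobox factor, followed with 9. Among those with 7 were Nrarp, a feedback inhibitor of Notch signalling, and Wnt7b, a Wnt ligand.

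Other wild-type lists seldom met solitary peaks, and several of these lists were short. They held 217 peaks for PCGF3, 735 for PCGF1 and 1741 for H2AK119ub1, but 40094 for H3K4me3 and 60309 for H3K36me3. A low share in a short list therefore does not show that the protein or mark was absent. H3K4me3, the mark of active and poised promoters, was called on 399 of them (13.9%) against 51.5% of all H3K27me3 peaks. H2AK119ub1, the product of PRC1, was called on 214 (7.46%, all 16.5%). H3K36me3, a mark of transcribed gene bodies, met 10 (0.348%, all 0.546%). In the knockout lines H3K4me3 met 399 in Pcgf1-/- (13.9%, all 51.6%), 361 in Pcgf2/4-/- (12.6%, all 50%), 316 in Pcgf3/5-/- (11%, all 46.8%) and 573 in Pcgf6-/- (20%, all 59.5%), and was thus called most often in Pcgf6-/-. H3K36me3 met 15 in Pcgf1-/- (all 0.744%), 12 in Pcgf2/4-/- (all 0.608%), 9 in Pcgf3/5-/- (all 0.657%) and 24 in Pcgf6-/- (all 1.09%). In wild-type, PCGF2 met 1 (0.0348%, all 40.1%), PCGF1 met 3 (0.105%, all 6.75%), PCGF6 met 8 (0.279%, all 4.9%) and WDR5 met 1 (0.0348%, all 3.49%). No PCGF3 peak met a solitary peak (all 0.236%), and 0 of 2870 allows a share of up to 0.105% met by that list of 217 peaks. USF1, a basic helix-loop-helix factor, met 23 (0.801%, all 2.9%). The PCGF lists are tied to the rule, since PCGF proteins share complexes with RING1B. The 399 solitary peaks with H3K4me3 were farther from SUZ12 (median 16984 bp against 1117 bp for the rest) and richer in CpG (median ratio 0.358 against 0.231).

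Named by their -log10 q, the strongest solitary peaks were of differing kinds. The peak in the intron of Mid1, an E3 ubiquitin ligase gene, had the highest value, 32.8 (chrX:166433326-166434438, fold enrichment 6.11), lay 375 bp from SUZ12, and was met by peaks in 24 of the 46 lists examined, of all antibodies and lines. The peak over the start of Spink2, a serine protease inhibitor of male germ cells, had the highest fold enrichment of the class, 9.82, a -log10 q of 21.5 and its nearest SUZ12 peak 69862 bp away, and carried H3K4me3. A peak of 2199 bp near Gm10146 (chr10:77850643-77852841, -log10 q 17.5) lay 361998 bp from SUZ12. Peaks beside Sema5b, an axon guidance gene (chr16:35539408-35540379, 16.8), and within Syt12, a synaptotagmin (chr19:4475276-4476083, 16), lay 202 and 135 bp from SUZ12. The farthest from SUZ12 lay in Pcdh20, a protocadherin (chr14:88868629-88869151, 4020080 bp), 669 bp from the start of Ptprd, a receptor tyrosine phosphatase (chr4:77856628-77857195, 1759545 bp), and 204778 bp from the start of Meis2, a homeobox factor (chr2:115686108-115686797, 1480972 bp), where the CpG ratio was 0.672.

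The H3K27me3 list of each knockout line was then searched for these regions. A peak is called kept where at least 1 bp of it was covered by an H3K27me3 peak of the line. Pcgf1-/- kept 2265 solitary peaks (78.9%, interval 77.4 to 80.4%), against 89.2% of all H3K27me3 peaks. Pcgf2/4-/- kept 2573 (89.7%, 88.5 to 90.7%, all 95.3%), and Pcgf3/5-/- kept 1997 (69.6%, 67.9 to 71.2%, all 87.1%). Pcgf6-/- kept 1454 (50.7%, 48.8 to 52.5%, all 62.4%). Pcgf1/2/4-/- kept 468 (16.3%, 15 to 17.7%, all 24.4%), and the line labelled Pcgf3/5/6-/- kept 1873 (65.3%, 63.5 to 67%, all 81.8%). The lists differed in length, and that of Pcgf1/2/4-/- was the shortest. With every knockout list shortened to its 3918 strongest peaks the shares were 33.4% in Pcgf1-/-, 39.6% in Pcgf2/4-/-, 24.4% in Pcgf3/5-/-, 21.9% in Pcgf6-/- and 35.3% in the line labelled Pcgf3/5/6-/-.

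In every line solitary peaks were kept less often than co-called ones, as the bars by line show. The difference was -8.73 percentage points in Pcgf2/4-/-, -12.6 in Pcgf1/2/4-/-, -15.9 in Pcgf1-/- and -18.3 in Pcgf6-/-. It was widest in the line labelled Pcgf3/5/6-/-, at -25.6, and in Pcgf3/5-/-, at -27.2 (co-called peaks 96.8% kept). Solitary peaks were narrower. Averaged within quartiles of width the differences were -7.18, -3.22, -13.2, -5.03, -22.6 and -25.2 in the same order of lines, so they moved by over 1.5 times in Pcgf1/2/4-/- and Pcgf6-/-. Averaged within quartiles of fold enrichment they were -6.72 in Pcgf1/2/4-/-, -11.2 in Pcgf6-/- and -23.4 in the line labelled Pcgf3/5/6-/-. With the knockout lists shortened to the 3918 strongest peaks each, the differences became -35.8 in Pcgf2/4-/-, -41.2 in Pcgf1-/-, -34.4 in the line labelled Pcgf3/5/6-/- and -48.5 in Pcgf3/5-/-.

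**Figure D3:**
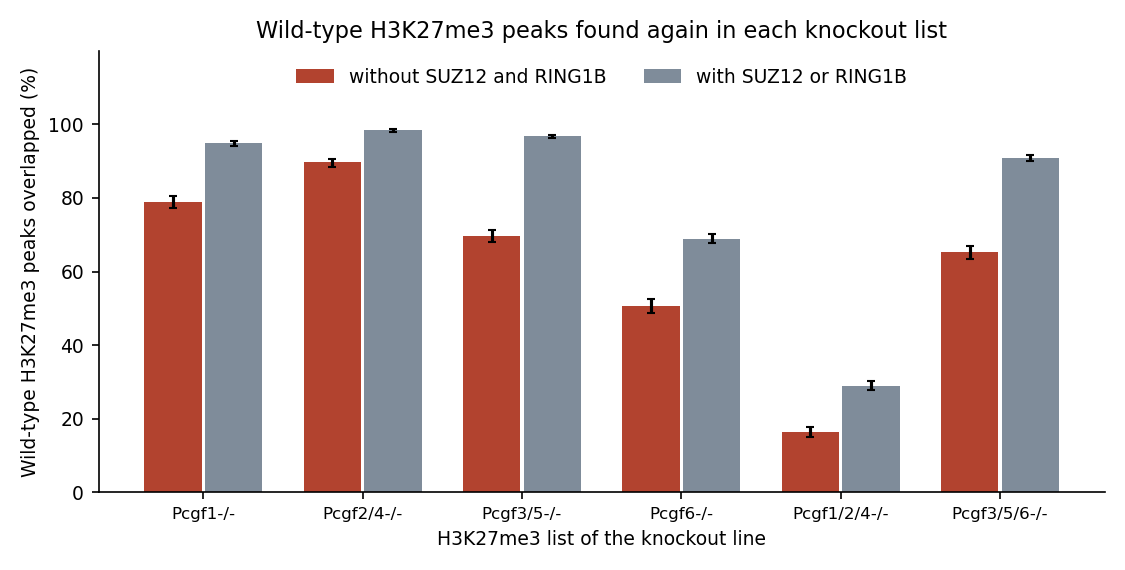
Percent of wild-type H3K27me3 peaks overlapped by an H3K27me3 peak of each knockout line, for peaks without SUZ12 and RING1B (red, n = 2870) and with either (grey, n = 5193); whiskers are Wilson 95% intervals of 1 list each. Red bars are lower in all 6 lines and lowest in Pcgf1/2/4-/- (16.3%).

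How many lists kept a solitary peak varied from peak to peak. All 6 lists kept 177 (6.17%, against 23.4% of co-called peaks), 5 lists kept 712, 4 kept 779, 3 kept 668, 2 kept 370 and 1 kept 148. No list kept 16 (0.557%). Peaks found in more lists were wider, with a median of 631 bp for all 6 lists and 238 bp for none. The most frequent pattern, seen in 556 (19.4%), was to be kept everywhere but in Pcgf1/2/4-/-, followed by 343 (12%) missing in Pcgf6-/- and Pcgf1/2/4-/-. Among the named peaks, those in Mid1, beside Sema5b and in Thsd4, an extracellular matrix gene (chr9:60369108-60369620, 190810 bp from SUZ12), were kept in all 6 lists. The Spink2 peak was missing in Pcgf1/2/4-/- and the line labelled Pcgf3/5/6-/-.

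Runs did not behave alike. All 8 peaks of the Celsr2 run were kept in Pcgf1-/-, Pcgf2/4-/-, Pcgf3/5-/- and Pcgf1/2/4-/-, and 7 in Pcgf6-/-, but 2 in the line labelled Pcgf3/5/6-/-. The Nkx1-1 run kept 8 in Pcgf1-/- and in Pcgf2/4-/-, 7 in Pcgf1/2/4-/-, 4 in Pcgf6-/-, 2 in Pcgf3/5-/- and 0 in the line labelled Pcgf3/5/6-/-. Both runs were thus retained in Pcgf1/2/4-/-, the list that met the fewest solitary peaks. A run of 6 at Panx2, a pannexin channel gene, went the other way, with 0 kept in Pcgf1/2/4-/- and 6 in the line labelled Pcgf3/5/6-/-.

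Distance from SUZ12 separated the kept from the lost most clearly in the line labelled Pcgf3/5/6-/-. There 83.5% (81.4 to 85.5%) of solitary peaks within 1 kb of a wild-type SUZ12 peak were kept, 68.5% at 1 to 5 kb, 49% at 5 to 10 kb, 40.9% at 10 to 50 kb, 36.5% at 50 to 100 kb and 38.5% (33 to 44.3%) beyond 100 kb. Its kept peaks lay a median of 791 bp from SUZ12 and its lost ones 12787 bp. A gene start was near 47.6% of the kept and 26% of the lost. The decline remained with lists of equal length (52.6% within 1 kb, 13.1% beyond 100 kb), and both in solitary peaks up to the median width (78.8% and 26.3%) and in wider ones (87.8% and 53.5%). Peaks in that line were broad, with a median of 1599 bp over the kept solitary peaks, and 44.6% of the kept were covered by a peak that also reached a wild-type SUZ12 or RING1B site. The share so covered was 31.7% in Pcgf1-/-, 30.8% in Pcgf2/4-/-, 29.8% in Pcgf3/5-/-, 13.9% in Pcgf6-/- and 8.55% in Pcgf1/2/4-/-, so part of what counts as kept near SUZ12 was a neighbouring domain reaching over the region.

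With the lists as deposited, the other lines showed smaller gradients. From within 1 kb to beyond 100 kb of SUZ12 the share kept was 82.4% and 75.3% in Pcgf1-/-, 77.9% and 62.5% in Pcgf3/5-/-, 55.1% and 41.7% in Pcgf6-/-, and 16.8% and 15.2% in Pcgf1/2/4-/-. Pcgf2/4-/- ran in the opposite direction, from 84% within 1 kb to 93.3% beyond 100 kb, but its list covered 81.6 Mb against 6.33 Mb in wild-type, and at equal list length its shares turned to 45.7% and 24%. At equal list length the shares also fell in Pcgf1-/-, from 42.9% to 21.2%, and in Pcgf3/5-/-, from 36.5% to 13.4%. Pcgf6-/- went from 25% to 16.6%, so a decline was not particular to the line labelled Pcgf3/5/6-/-. The peaks lost in Pcgf2/4-/- had a median GC content of 44.5%, against 53.1% for those kept. Whether list length accounts for its direction was not tested.

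**Figure D4:**
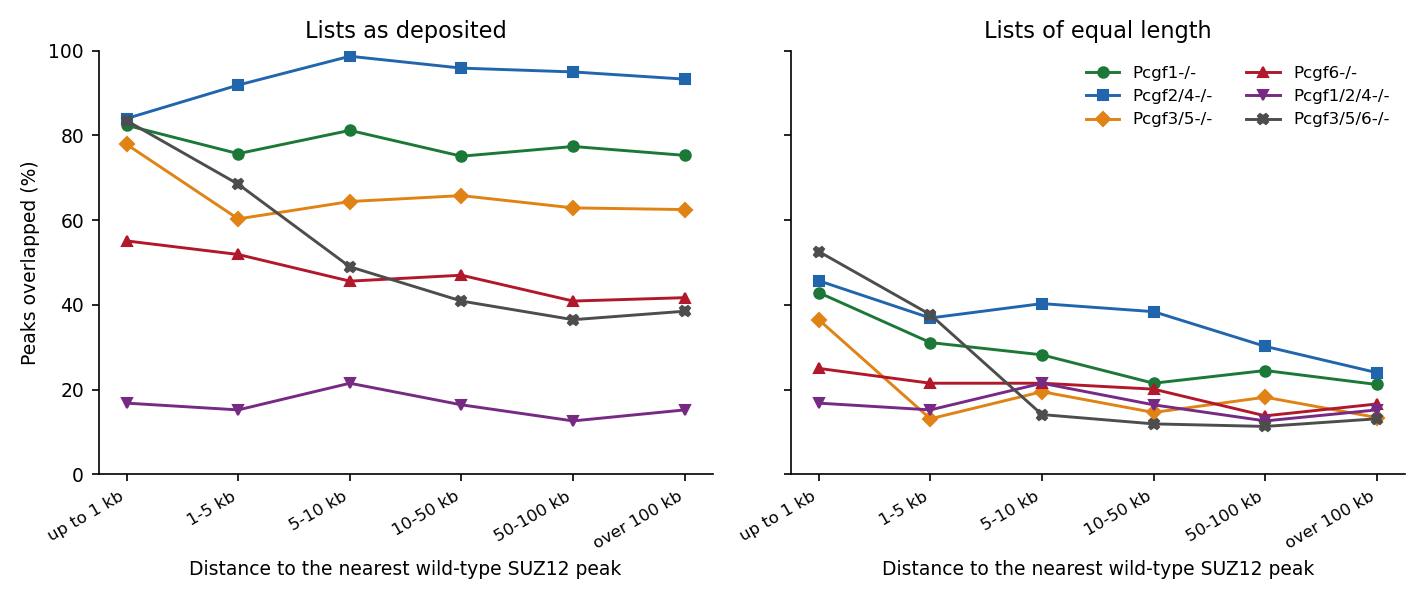
Percent of the 2870 solitary peaks overlapped by an H3K27me3 peak of each knockout line, in 6 ranges of distance to the nearest wild-type SUZ12 peak, with the lists as deposited (left) and with each shortened to its 3918 strongest peaks (right). The line labelled Pcgf3/5/6-/- falls from 83.5% to 38.5% on the left and from 52.6% to 13.1% on the right, while Pcgf2/4-/- rises on the left and falls on the right.

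SUZ12 was called on some of these regions once a PCGF gene had been edited. Its peaks met 766 solitary peaks in Pcgf6-/- (26.7%, all H3K27me3 peaks 68.4%), 452 in Pcgf2/4-/- (15.7%, all 65.7%) and 249 in the line labelled Pcgf3/5/6-/- (8.68%, all 55.6%). The counts were 199 in Pcgf3/5-/- (6.93%, all 59.7%), 162 in Pcgf1/2/4-/- (5.64%, all 49.2%) and 71 in Pcgf1-/- (2.47%, all 54.7%). Since wild-type SUZ12 is absent here by definition, some gain in any second list follows from the choice of the regions, and the order of lines is the description that remains. Most of the Pcgf6-/- calls lay close to wild-type sites: 38% of solitary peaks within 1 kb were met and 17% of those beyond 100 kb. The SUZ12 list of Pcgf6-/- covered 9.69 Mb, that of Pcgf2/4-/- 9.71 Mb and that of wild-type 7.89 Mb.

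Where SUZ12 was called in a line, H3K27me3 was called in that line more often. Of solitary peaks with SUZ12 in Pcgf6-/-, 74.3% were kept (71.1 to 77.3%), against 42.1% (40 to 44.2%) without it. In Pcgf1/2/4-/- the shares were 46.9% (39.4 to 54.6%) and 14.5% (13.2 to 15.9%), and in the line labelled Pcgf3/5/6-/- 98% and 62.2%. Across the 6 lines 1096 solitary peaks (38.2%) met SUZ12 at least in 1 line, 360 of them (12.5% of all solitary peaks) in Pcgf6-/- alone, and 2 in every line. Neither SUZ12 nor RING1B was called in any line on 1670 (58.2%).

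RING1B and its product followed other orders. RING1B met 598 solitary peaks in Pcgf6-/- (20.8%, all 61.9%), 173 in Pcgf1-/- (6.03%, all 54%), 4.32% of them in Pcgf3/5-/- (all 52.3%), 50 in Pcgf2/4-/- (1.74%, all 40.1%) and 7 in the line labelled Pcgf3/5/6-/- (0.244%, all 34.1%). The 2 lists of Pcgf1/2/4-/- met 10 (0.348%, all 10.6%) and 11 (0.383%, all 8.3%). H2AK119ub1, in contrast, met most solitary peaks in Pcgf2/4-/- (81.2%, all 89.5%) and Pcgf3/5-/- (78.8%, all 91%), whose H2AK119ub1 lists held 121944 and 128786 peaks. It met 55.6% in the line labelled Pcgf3/5/6-/- (all 78.5%), where the share fell from 78% within 1 kb of SUZ12 to 33.2% beyond 100 kb, much as H3K27me3 did. The shares were 27.1% in Pcgf1-/- (all 40.3%), 25.6% in Pcgf6-/- (all 33.3%) and 7.42% and 5.05% in the 2 lists of Pcgf1/2/4-/- (all 6.88% and 3.93%), the only line in which solitary peaks were met about as often as H3K27me3 peaks in general. Of the 214 solitary peaks with H2AK119ub1 in wild-type, 45.8% kept H3K27me3 in Pcgf1/2/4-/-, against 13.9% of the rest.

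The nearest gene was taken as the protein-coding start closest to a solitary peak and within 50 kb. This assigned 2526 solitary peaks to 1643 genes, 7.39% of protein-coding genes, and implies no regulation. Assigned in the same way, co-called peaks were nearest to 11.3% of protein-coding genes. Of the developmental regulators listed, which include Hox, Sox, Tbx and Wnt genes, 97 of 250 (38.8%) were nearest to a solitary peak, and 171 (68.4%) to a co-called one. Among imprinted genes 7 of 25 (28%) were nearest to a solitary peak and 36% to a co-called one. Among PRC1 genes the shares were 3 of 19 (15.8%) and 21.1%, and among germline genes 2 of 20 (10%) and 40%. Among genes of PRC2 they were 0 of 13 and 7.69%. Of the clustered beta-protocadherins 8 of 21 (38.1%) were, against 3 of 21 (14.3%) for co-called peaks. Olfactory receptor genes were nearly absent (1 of 1113, 0.0898%, co-called 0.359%). Zinc finger genes named Zfp stood at 4.32% (16 of 370, co-called 7.03%) and solute carriers at 9.51% (35 of 368, co-called 15.2%).

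Genes beside solitary peaks were weakly expressed in wild-type. Of the 1643, 1520 were in the count table and 1072 passed the filter on low counts, so the values below describe those 1072 only; a gene silent in wild-type passed through knockout libraries in which it had reads. Their median level was 0.875 CPM per kb of exon, against 7.76 over all genes tested that have an annotated length. SUZ12 or RING1B was called at the start of 650 of them (median 0.583 CPM per kb), while 422 had neither (2.15 CPM per kb). The level of genes next to solitary peaks was thus lower still where the proteins were at the start itself.

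Expression was compared with wild-type by edgeR's quasi-likelihood test over all 15464 genes tested, with an adjusted p under 0.05. Genes beside solitary peaks rose in number mainly in the line labelled Pcgf3/5/6-/-: 600 of 1072 rose (56%, all genes 28%) and 118 fell (11%, all 25.3%), with a median log2 fold change of 1.14 against 0.05 over all genes. In Pcgf6-/- 420 rose (39.2%, all 27.8%) and 180 fell (16.8%, all 18.6%), with a median of 0.45 against 0.03. In Pcgf1-/- 259 rose (24.2%, all 13.9%) and 173 fell (16.1%, all 18.4%). Pcgf3/5-/- had 193 raised (18%, all 11.1%) and 120 lowered (11.2%, all 10.4%). Pcgf2/4-/- leaned downward, with 70 raised (6.53%, all 8.1%), 242 lowered (22.6%, all 13.5%) and a median of -0.31 against 0.00. In Pcgf1/2/4-/- 151 rose (14.1%), close to the 14.4% over all genes, and 154 fell (14.4%, all 22.6%). In both directions together 40.3% of these genes changed in Pcgf1-/- (all 32.3%), 29.1% in Pcgf2/4-/- (all 21.6%), 29.2% in Pcgf3/5-/- (all 21.6%), 56% in Pcgf6-/- (all 46.5%), 28.5% in Pcgf1/2/4-/- (all 37%) and 67% in the line labelled Pcgf3/5/6-/- (all 53.3%). Of the 1072 genes, 618 were also the nearest gene of a co-called peak, and 454 were nearest to solitary peaks only. Of these 454, 51.3% rose and 13.2% fell in the line labelled Pcgf3/5/6-/-, and 42.1% and 14.8% in Pcgf6-/-. The shares were 22.7% and 14.5% in Pcgf1-/- and 16.7% and 9.91% in Pcgf3/5-/-. They were 7.05% and 22.9% in Pcgf2/4-/- and 9.69% and 15.9% in Pcgf1/2/4-/-. All 6 comparisons share the same wild-type libraries, so they are not independent of one another.

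**Figure D5:**
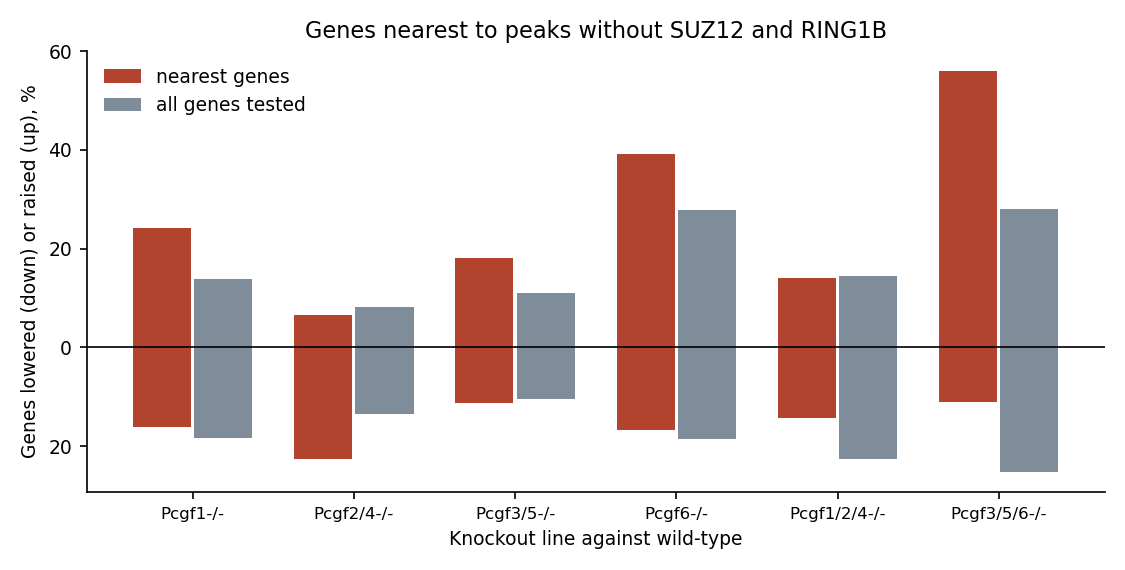
Percent of genes raised (upward) and lowered (downward) in each knockout line against wild-type, for the 1072 tested genes nearest to solitary peaks (red) and for all 15464 genes tested (grey), by edgeR adjusted p under 0.05. The red bar is longest upward in the line labelled Pcgf3/5/6-/- (56% against 28%) and exceeds the grey one downward most in Pcgf2/4-/- (22.6% against 13.5%).

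The 2 wild-type libraries differed by less than the sampling noise (chi-square per degree of freedom 0.951, against 1.19 to 21.3 for the pairs of knockout libraries), so they were also counted as 1 sample by summing them. Over the 1146 nearest genes then fitted, the median log2 fold change was 1.27 in the line labelled Pcgf3/5/6-/- (all genes 0.06). It was 0.48 in Pcgf6-/- (all 0.03), 0.04 in Pcgf1-/- (all -0.05) and 0.07 in Pcgf3/5-/- (all 0.00). In Pcgf2/4-/- it was -0.30 (all 0.00), and in Pcgf1/2/4-/- 0.00 (all -0.11). Nothing in the labels says that the libraries of a line came from separate cultures, so the p-values measure only the spread between these libraries. The split in Pcgf1/2/4-/- moved with scaling: edgeR with RLE factors called 176 raised (16.4%, all genes 17.6%) and 139 lowered (13%, all 19.2%). DESeq2, which also changed the test and the filter, called 192 of 1483 raised (12.9%, all 14.2%) and 115 lowered (7.75%, all 13.6%). A fit of only the 2 groups compared moved the count of changed genes in Pcgf2/4-/- by over 1.5 times. Leaving out 1 library moved the count of changed genes by over 1.5 times in 3 lines: from 432 in Pcgf1-/- to 254 without its replicate 1 and 287 without wild-type replicate 2. In Pcgf3/5-/- 313 became 165 without its replicate 1, 175 without wild-type replicate 1 and 154 without wild-type replicate 2. In Pcgf1/2/4-/- 305 became 154 without its replicate 1, 148 without its replicate 2 and 202 without wild-type replicate 1.

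Genes with no SUZ12 or RING1B at their own start are those where a solitary peak stood more alone. In the line labelled Pcgf3/5/6-/- 192 of these 422 rose (45.5%, all genes 28%) and 61 fell (14.5%, all 25.3%), with a median of 0.63. Of the 650 others 408 rose (62.8%), with a median of 1.53. In Pcgf6-/- 145 of the 422 rose (34.4%, all 27.8%) and 67 fell (15.9%, all 18.6%). In Pcgf2/4-/- 29 rose (6.87%, all 8.1%) and 78 fell (18.5%, all 13.5%). The share that rose also varied with the fate of the peak. In the line labelled Pcgf3/5/6-/- 299 of 619 genes whose solitary peaks were all kept rose (48.3%), and 202 of 311 genes whose solitary peaks were all lost (65%). In Pcgf6-/- the shares were 29.7% of 418 and 46.8% of 485, and in Pcgf1-/- 20.9% of 750 and 31% of 216. In Pcgf2/4-/- they were 6.14% of 929 and 6.93% of 101. These differences were not tested. In bulk libraries more RNA per cell and more cells of another state cannot be told apart.

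Markers of other states moved in the same libraries. Summed trophoblast markers were 229 to 243 CPM in wild-type, 417 to 439 in Pcgf6-/-, 373 to 424 in Pcgf1/2/4-/- and 1208 to 1238 in the line labelled Pcgf3/5/6-/-, where 5 of 7 rose and Cdx2 and Eomes fell. Summed markers of the 2-cell-like state (3 of 5 in the table) were 77.3 to 77.6 CPM in wild-type, 275 to 309 in Pcgf6-/- and 201 to 204 in the line labelled Pcgf3/5/6-/-. They were lower in the other lines, at 2.06 to 6.77 in Pcgf1-/-, 9.75 to 9.77 in Pcgf3/5-/-, 10.7 to 11.3 in Pcgf1/2/4-/- and 38.1 to 38.4 in Pcgf2/4-/-. Primitive endoderm markers summed to 305 to 308 CPM in wild-type, 168 to 170 in Pcgf1-/-, 444 to 461 in Pcgf1/2/4-/- and 568 to 589 in the line labelled Pcgf3/5/6-/-, where 5 rose and Lama1 fell. Of the 9, 5 were at 0 in wild-type, Gata4 and Sox17 among them. Fibroblast markers summed to 10.8 to 15 CPM in wild-type and 35.8 to 38.5 in the line labelled Pcgf3/5/6-/-, where 3 rose and Lum fell, with Col3a1, Postn and Dcn at 0 in wild-type. Their part in the changes of genes beside solitary peaks was not tested.

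Of the gene groups, the developmental regulators nearest to a solitary peak had 39 tested members. In the line labelled Pcgf3/5/6-/- 20 rose and 4 fell (Hoxa10, Hoxc4, Hoxc5 and Wnt5b), with a median of 1.35. Over all 1072 genes beside solitary peaks 56% rose in that line, so nothing particular to the regulators is shown. In Pcgf1/2/4-/- 12 rose and 4 fell, in Pcgf1-/- 11 and 7, in Pcgf2/4-/- 9 and 7, in Pcgf6-/- 9 and 9, and in Pcgf3/5-/- 5 and 6, beside the shares over all genes given above. Posterior Hox genes were among those that rose in Pcgf1/2/4-/-: Hoxa10, Hoxb13, Hoxc10 and Hoxd13, transcription factors of axial patterning. Of the 6 imprinted genes tested, Igf2, Igf2r, Cdkn1c, Ascl2 and Dlk1 rose in the line labelled Pcgf3/5/6-/- and Grb10 fell. Of all 22 imprinted genes tested, beside solitary peaks or not, 13 rose and 6 fell in that line. Both germline genes nearest to a solitary peak, Ddx4 and Mei1, rose in Pcgf6-/- and in the line labelled Pcgf3/5/6-/-, and both fell in Pcgf2/4-/-, Pcgf3/5-/- and Pcgf1/2/4-/-. Of the whole germline list 19 of 20 rose in Pcgf6-/- and 18 of 20 in the line labelled Pcgf3/5/6-/-, so their rise is not particular to them. In Pcgf2/4-/-, Pcgf3/5-/- and Pcgf1/2/4-/- the whole list had 4, 9 and 2 raised and 5, 4 and 7 lowered. The call of Mei1 in Pcgf1/2/4-/- was lost without either replicate of that line (edgeR adjusted p = 0.0661 and 0.0785).

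Igf2, the imprinted insulin-like growth factor, had 3 solitary peaks, the nearest 1168 bp from its start. Its counts were 0.571 and 1.13 CPM in wild-type. In the line labelled Pcgf3/5/6-/- they were 274 and 274 CPM, a log2 fold change of 8.29 (SE 0.24). All 3 of its solitary peaks were still met by H3K27me3 peaks in that line. Igf2 also rose to 21.7 and 21.1 CPM in Pcgf6-/- (4.62, SE 0.29), where 2 of the 3 were kept. Igf2 passed the filter on low counts only through knockout libraries, so both rises are descriptions and not tests. It overlaps the antisense gene Igf2as, and since the use of strand in counting is not given, reads of both cannot be told apart.

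Spink2 carried its solitary peak over the start. Wild-type libraries held 3.42 and 3.52 CPM, Pcgf6-/- 26.5 and 24.4 CPM (2.87, SE 0.22, edgeR adjusted p = 2.77e-07) and the line labelled Pcgf3/5/6-/- 11.4 and 9.8 CPM (1.61, SE 0.27, edgeR adjusted p = 0.000274). In Pcgf2/4-/- no read was counted, at least 11.8-fold lower when the floor is set at 3 counts over both libraries of the line, as in all such bounds here (edgeR adjusted p = 0.00015). The peak was kept in Pcgf6-/-, in which the gene rose, and in Pcgf2/4-/-, in which it fell. Myl9, a regulatory light chain of myosin, had a solitary peak 28 bp from its start and 160473 bp from SUZ12, kept in all lines but the one labelled Pcgf3/5/6-/-. Its counts were 3.71 and 3.94 CPM in wild-type, 48.3 and 51.7 CPM in that line (3.70, SE 0.26, edgeR adjusted p = 1.36e-07) and 26.5 and 20.7 CPM in Pcgf6-/- (2.62, SE 0.26, edgeR adjusted p = 2.83e-06). In Pcgf2/4-/- it was at 0 in both libraries, at least 13-fold lower (edgeR adjusted p = 0.000368).

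Iqca, a gene of an ATPase-domain protein, had a solitary peak 424 bp from its start and 160382 bp from SUZ12. No read of it was counted in wild-type, and 19.9 and 15.5 CPM in Pcgf6-/-, at least 84.3-fold higher, where the peak was lost. Iqca passed the filter on low counts only through knockout libraries in which it had reads, so its rise is a description and not a test. Thsd4, whose peak was kept in all 6 lists, had 0.999 and 0 CPM in wild-type. In the line labelled Pcgf3/5/6-/- it had 9.16 and 8.11 CPM (log2 fold change 4.06, SE 0.64). Thsd4 too passed the filter only through knockout libraries, so its rise is a description as well. A gene could therefore rise with its solitary peak kept or lost.

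Among genes with SUZ12 or RING1B at the start as well was Atf3, a stress-response factor with a solitary peak 1898 bp off. Atf3 rose from 1.43 and 1.41 CPM to 54 and 48.5 CPM in Pcgf1-/- (5.16, SE 0.24). It passed the filter on low counts only through knockout libraries, so its rise is a description and not a test. Mei1, needed for meiotic double-strand breaks, stood at 1.85 and 2.39 CPM in wild-type, at 0 in Pcgf1-/- (at least 9.58-fold lower, edgeR adjusted p = 0.00107) and at 36.7 and 28.7 CPM in the line labelled Pcgf3/5/6-/- (3.93, SE 0.28, edgeR adjusted p = 1.61e-06). Car12, a membrane carbonic anhydrase, fell from 0.999 and 0.985 CPM to 0 in Pcgf1-/-, at least 4.47-fold (edgeR adjusted p = 0.00776, 0.0903 without Pcgf1-/- replicate 1). Hoxa10 rose from 3.71 and 4.22 CPM to 25.1 and 26.7 CPM in Pcgf2/4-/- (2.71, SE 0.25, edgeR adjusted p = 1.13e-05) and fell to 0 and 0.676 CPM in the line labelled Pcgf3/5/6-/- (-3.51, SE 0.68, edgeR adjusted p = 0.00057).

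Other genes beside solitary peaks fell. Rgs11, a regulator of G-protein signalling with 3 solitary peaks, went from 4.71 and 5.06 CPM to 0 in Pcgf2/4-/-, at least 16.6-fold lower (edgeR adjusted p = 6.32e-05). T, the mesoderm factor Brachyury, whose solitary peak lay 44962 bp from its start, went from 36.2 and 30 CPM to 0.622 and 1.23 CPM in Pcgf6-/- (-5.17, SE 0.33, edgeR adjusted p = 1.97e-08). Kirrel2, an adhesion protein of the immunoglobulin family, went from 15 and 18 CPM to 0.498 and 0.46 CPM there (-5.03, SE 0.44, edgeR adjusted p = 4.83e-07). Psmb8, an immunoproteasome subunit, fell from 1.28 and 1.41 CPM to 0 in Pcgf3/5-/- (at least 5.7-fold, edgeR adjusted p = 0.00395). It stood at 31.3 and 32.1 CPM in the line labelled Pcgf3/5/6-/- (4.53, SE 0.31). Psmb8 passed the filter on low counts only through knockout libraries, so that rise is a description and not a test. Slc44a5, a choline transporter-like gene, rose from 3.28 and 1.69 CPM to 17.1 and 15.7 CPM in Pcgf3/5-/- (2.72, SE 0.26, edgeR adjusted p = 1.36e-05) and was at 0 in the line labelled Pcgf3/5/6-/-, at least 5.07-fold lower (edgeR adjusted p = 0.000617). Hoxc4 fell from 5.42 and 6.19 CPM to 0.316 and 0 CPM in that line (-4.97, SE 0.70, edgeR adjusted p = 4.38e-05).

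Of the remaining named genes, Plekhg4, a guanine nucleotide exchange factor, had 0 and 0.422 CPM in wild-type, 2.14 and 4.97 CPM in Pcgf1/2/4-/- and 23.4 and 24.3 CPM in the line labelled Pcgf3/5/6-/-. Gm1673 went from 7.7 and 9.14 CPM to 0.534 and 0 CPM in Pcgf1/2/4-/-. Sema5b, whose 3 solitary peaks within 50 kb of its start were kept in every list, fell from 4.99 and 4.64 CPM to 0.838 and 0.639 CPM in Pcgf2/4-/- (-2.77, SE 0.49, edgeR adjusted p = 0.00124) and rose to 8.34 and 8.12 CPM in Pcgf6-/- (0.77, SE 0.27, edgeR adjusted p = 0.0302). The latter call was lost in DESeq2 (adjusted p = 0.0812), with the wild-type pair summed (edgeR adjusted p = 0.0768) and with any 1 library left out (0.098 to 0.148). Syt12 had 4.28 and 3.8 CPM in wild-type and passed the test only in Pcgf6-/- (7.1 and 6.28 CPM, log2 fold change 0.73, SE 0.24, edgeR adjusted p = 0.021), a call lost in DESeq2 (0.0796), with the wild-type pair summed (0.0559) and with any 1 library left out (0.0529 to 0.151). Ptprd, with 2.28 and 3.66 CPM in wild-type, passed in Pcgf1/2/4-/- (0.534 and 0 CPM) and in the line labelled Pcgf3/5/6-/- (0.632 and 1.35 CPM). The call in Pcgf1/2/4-/- was lost in DESeq2 (adjusted p = 0.0519) and in edgeR without wild-type replicate 2 (0.0601) or replicate 2 of the line (0.16). That in the line labelled Pcgf3/5/6-/- was lost in DESeq2 (adjusted p = 0.0857) and in edgeR with RLE factors (0.0567), the wild-type pair summed (0.0502), the replicate block (0.0544), and without wild-type replicate 2 (0.194) or either replicate of the line (0.259 and 0.0712). Pcdh20, nearest to the most remote solitary peak, had 22 counts over all libraries and was not tested.

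Genes that write and erase the mark were looked at last, none of them nearest to a solitary peak. Of 13 PRC2 genes tested, 0 rose and 4 fell in Pcgf1-/-, 0 and 1 in Pcgf2/4-/-, 1 and 3 in Pcgf3/5-/-, 1 and 1 in Pcgf6-/-, 1 and 2 in Pcgf1/2/4-/-, and 3 and 3 in the line labelled Pcgf3/5/6-/-. Over all genes tested the raised and lowered shares were 13.9% and 18.4%, 8.1% and 13.5%, 11.1% and 10.4%, 27.8% and 18.6%, 14.4% and 22.6%, and 28% and 25.3% in the same order, and with 13 genes nothing particular to PRC2 is shown. Suz12 stood at 115 and 118 CPM in wild-type and at 66 and 63.5 CPM in the line labelled Pcgf3/5/6-/- (-0.85, SE 0.10, edgeR adjusted p = 9.15e-06). It also stood lower in Pcgf3/5-/-, at 81.6 and 82.6 CPM (-0.51, SE 0.10, edgeR adjusted p = 0.002), and in Pcgf1-/-, at 88.8 and 93.7 CPM (-0.36, SE 0.10, edgeR adjusted p = 0.0109), but the call in Pcgf1-/- was lost when any 1 library was left out (edgeR adjusted p from 0.0594 to 0.0943). Jarid2, an accessory subunit of PRC2, rose in the line labelled Pcgf3/5/6-/- from 318 and 322 to 594 and 562 CPM (0.85, SE 0.16, edgeR adjusted p = 0.000397). Ezh2 rose from 82.8 and 80.6 CPM to 118 and 131 CPM in Pcgf1/2/4-/- (0.61, SE 0.10, edgeR adjusted p = 0.000343) and fell to 56 and 56 CPM in Pcgf1-/- (-0.54, SE 0.10, edgeR adjusted p = 0.000669). Kdm6a, a demethylase that removes the mark, fell from 83.9 and 82.1 CPM to 37.4 and 38.8 CPM in Pcgf1/2/4-/- (-1.12, SE 0.14, edgeR adjusted p = 3.79e-05). Eed and Mtf2 did not pass the test in any line. The levels of these mRNAs and the fate of the peaks are given side by side, and a link between them was not tested.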

How the data were processed

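Peak lists of chromatin immunoprecipitation and RNA sequencing counts from mouse E14 embryonic stem cells were used: 46 peak lists and 14 RNA libraries. The members, the gene lists and the rules were chosen with earlier results of these data known. The submitters' processing notes name the mm9 build, bcl2fastq 2, Bowtie 1.2.2, TopHat2 2.1.1, MACS2 2.1.1, Picard 1.62, HTSeq 0.7.2 and DESeq2 3.7, without roles. Per the labels' protocols, fly chromatin was added to histone immunoprecipitations, but no source used here says how it entered the peak lists. The deposited lists give each peak the authors' fold enrichment, -log10 p and -log10 q. Each list is 1 sample, not a pool. The wild-type H3K27me3 list held 8063 peaks whose names number up to 19490, so the deposited lists are filtered. RNA values are raw counts per gene symbol, deposited by the authors, and no source used here gives the use of strand in counting.

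Peaks were joined by an overlap of at least 1 bp and placed on GENCODE M1 (NCBIM37). Shares carry Wilson 95% intervals. Counts were tested with edgeR 4.0.16 (R 4.3.3, TMM factors, filterByExpr, quasi-likelihood F test, Benjamini-Hochberg adjustment over 15464 genes, threshold 0.05) in 1 fit of 7 groups of 2 libraries. Its common biological coefficient of variation was 12.3%. DESeq2 1.42.0 was an alternative. On data simulated for Pcgf6-/- against wild-type with 15464 genes, 74.3% of genes changed 2-fold and 97.4% of those changed 4-fold were recovered. Folds against a group with 0 counts are bounds at a floor of 3 counts over both libraries of that group. Python 3.11.15, pandas 2.3.3, numpy 2.4.6, scipy 1.17.1, pysam 0.24.0 and matplotlib 3.10.9 were used.

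Named were the 5 solitary peaks with the highest -log10 q, the 3 farthest from SUZ12 and the 3 strongest kept in all 6 lists. For each line, the 2 raised and 2 lowered nearest genes with the largest change were named, among those whose mean log2 CPM reached 2 (with a prior count of 2) and whose libraries lay beyond both wild-type ones. The nearest genes of the named peaks and 8 genes of the pathway were added. Some items that these rules name are not reported here. Sequence windows with annotated exons and those on chromosome 18 were passed over. Alternatives covered overlap, thresholds, list length, windows, scaling, low counts, left-out libraries and a replicate block.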

Additional observations from a re-analysis of the deposited data

Results flagged for a closer look

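For 13 named genes the changes in 2 lines went in opposite directions and the difference between the lines passed edgeR's test, with p-values adjusted over all genes tested. The pair of lines was taken as the most opposed one after the values were seen, and both lines are compared with the same wild-type libraries, which drop out of the difference. Each gene had to pass in opposite directions in these 2 lines. That the difference passed follows largely from this choice, and it adds no support. All differences are on the log2 scale.

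Beside solitary peaks, Hoxa10 differed by 7.02 between Pcgf1/2/4-/- and the line labelled Pcgf3/5/6-/- (SE 0.46, edgeR adjusted p = 6.64e-08). Sema5b differed by -3.54 between Pcgf2/4-/- and Pcgf6-/- (SE 0.44, edgeR adjusted p = 1.35e-05), with its 3 nearby solitary peaks kept in both; its own call in Pcgf6-/- was lost with any 1 library left out (edgeR adjusted p from 0.098 to 0.148). Pcgf5, a PRC1 gene that is itself nearest to a solitary peak, differed by -3.10 between Pcgf1-/- and Pcgf6-/- (SE 0.20, edgeR adjusted p = 2.07e-08). For 6 genes 1 of the lines had 0 counts, so that the fitted value depends on the prior count and is no bound. These were Car12 (-10.23) and Mei1 (-10.46), Pcgf1-/- minus the line labelled Pcgf3/5/6-/-, Myl9 (-11.07), Pcgf2/4-/- minus that line, Psmb8 (-10.41) and Slc44a5 (9.47), Pcgf3/5-/- minus that line, and Spink2 (-10.10), Pcgf2/4-/- minus Pcgf6-/-.

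Among genes of the Polycomb machinery, Ezh2 differed by -1.16 between Pcgf1-/- and Pcgf1/2/4-/- (SE 0.10, edgeR adjusted p = 1.78e-06) and Kdm6a by 1.53 (SE 0.13, edgeR adjusted p = 1.96e-06). Kdm6b differed by 1.02 between Pcgf1-/- and Pcgf3/5-/- (SE 0.15, edgeR adjusted p = 0.000172). Bmi1 differed by 1.44 between Pcgf6-/- and the line labelled Pcgf3/5/6-/- (SE 0.20, edgeR adjusted p = 6.46e-05). The call of the rise of Kdm6a in Pcgf1-/- was lost without either wild-type replicate and with the wild-type pair summed (log2 fold changes 0.39 to 0.42). That of Kdm6b in Pcgf1-/- was lost without wild-type replicate 1 and with the pair summed (0.49 and 0.54). Against wild-type, the fall of Kdm6b in Pcgf3/5-/- was lost with the replicate block (edgeR adjusted p = 0.0585), with only the 2 groups (0.0533) and with any 1 library left out (0.0595 to 0.237). The fall of Bmi1 in the line labelled Pcgf3/5/6-/- was lost with RLE factors (edgeR adjusted p = 0.0637), in DESeq2 (0.122) and with any 1 library left out (0.0553 to 0.248).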

How the results depend on the processing

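None of the values below changed direction, and the cause of their moves was not tested except where the alternative itself removes peaks or libraries. The number of solitary peaks, 2870, became 1533 when SUZ12 or RING1B within 1 kb also removed a peak, 1670 when those of any line did, and 424 with a -log10 q of at least 10, a limit chosen after seeing the data. The median distance to SUZ12 became 1776 bp with SUZ12 peaks of -log10 q at least 10, 839 bp for solitary peaks of at least 10, and 2420 bp between summits. The share near a gene start became 18.9% (1 kb), 65.1% (10 kb), 44.3% (all biotypes) and 45.3% (-log10 q of at least 10). The CpG ratio became 0.263 over 1 kb and 0.269 for -log10 q of at least 10. Limits of -log10 q at 5 changed nothing.

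For shares kept, lines are given in the order Pcgf1-/-, Pcgf2/4-/-, Pcgf3/5-/-, Pcgf6-/-, Pcgf1/2/4-/- and the line labelled Pcgf3/5/6-/-. With at least 50% of the peak covered they were 75.4, 84.7, 60.7, 42.2, 12.6 and 62.8%. With lists of equal length the first 4 were 33.4, 39.6, 24.4 and 21.9% and the last 35.3%. With knockout peaks of -log10 q at least 10 (chosen after seeing the data) they were 66.8% in Pcgf1-/-, 55.1% in Pcgf3/5-/-, 20.9% in Pcgf6-/-, 3.59% in Pcgf1/2/4-/- and 56.6% in the last. With wild-type peaks so limited they were 87.5, 94.1, 83.3, 67, 29.5 and 75.7%.

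Differences from co-called peaks, in percentage points, became -18 (Pcgf1-/-), -10 (Pcgf2/4-/-), -33.9 (Pcgf3/5-/-) and -3.62 (Pcgf1/2/4-/-) with 50% covered. With equal lists they were -41.2, -35.8 and -48.5 in the first 3 lines and -34.4 in the last. With knockout peaks of -log10 q at least 10 they were -24.9 (Pcgf1-/-), -38.3 (Pcgf3/5-/-), -3.65 (Pcgf1/2/4-/-) and -30.8 (the last). With wild-type peaks so limited they were -9.25, -5.42, -15.1 and -15.3 in the first 4 lines and -19.3 in the last. Within quartiles of width they were -13.2, -7.18, -25.2, -5.03, -3.22 and -22.6, and within quartiles of fold enrichment -11.2 (Pcgf6-/-), -6.72 (Pcgf1/2/4-/-) and -23.4 (the last).

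Nearest genes changed, with 1 library left out, numbered 254 to 391 in Pcgf1-/-, 210 to 314 in Pcgf2/4-/-, 154 to 236 in Pcgf3/5-/-, 484 to 515 in Pcgf6-/-, 148 to 219 in Pcgf1/2/4-/- and 615 to 654 in the last. A fit of only the 2 groups gave 139 in Pcgf2/4-/- against 312. For the 35 named genes, 1930 of 2076 values under the alternatives kept their side of the threshold, 114 lost the call, 32 gained it and 0 reversed.

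Libraries share replicate numbers across groups, but their deviations correlated from -0.462 to 0.375 over 21 pairs of groups, over 0.1 in 3, so the numbers do not pair them. With the replicate block the counts were 405, 279, 289, 587, 285 and 701. The raised shares were then 22.8, 5.69, 16.9, 38.7, 13.2 and 54.8% (all genes 12.5, 7.2, 9.9, 26.8, 12.9 and 27%). The lowered shares were 15, 20.3, 10.1, 16, 13.3 and 10.6% (all genes 16.7, 11.9, 8.99, 17.6, 21.1 and 24.3%).

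Depth limits genes under the floor of 3 counts over a group's libraries, and 1 H3K27me3 list per line leaves the spread between immunoprecipitations unknown.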
